A study of Mus musculus with 2 samples.

Results

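The loci of *Nodal*, *Lefty1*, *Lefty2* and *Tdgf1* are described here in mouse embryonic stem cells, from counts of double-stranded CpG states. Each locus was taken as the span of the gene in GENCODE vM21 extended by 10 kb on both sides, and called the window of the gene. The 4 genes are 4 of 21938 protein-coding genes, and their windows held 1127 of 13676795 CpG sites in replicate 1 and 458 of 4918612 CpG sites in replicate 2. They were chosen by name, not by their CpG states, though with earlier results of these data known. The replicates are genomic DNA from 2 passages of E14 cells, an established mouse embryonic stem cell line, grown in serum with leukaemia inhibitory factor at 1000 U/mL. There was 1 condition and no treatment, and all libraries come from 1 line, so that the replicates measure the spread between passages and library preparations and no test between samples was possible. RNA was not measured, and the cell type could therefore not be checked against its marker genes.

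SCoTCH-seq reads unmodified cytosine (C), 5-methylcytosine (M) and 5-hydroxymethylcytosine (H) on both strands of the same DNA fragment, so that each read pair gives 1 of 9 CpG states at each CpG it covers. CC is unmodified on both strands and MM is methylated on both. MC/CM is methylated on 1 strand and unmodified on the other, HC/CH is hydroxymethylated on 1 strand and unmodified on the other, HM/MH is hydroxymethylated on 1 strand and methylated on the other, and HH is hydroxymethylated on both. A level is the percentage of all calls in a region that had the named state. Intervals are exact Clopper-Pearson 95% intervals, and they cover counting error only. The intervals of the replicates did not overlap for CC and MM of *Nodal* and for CC of *Lefty1*, and overlapped for the other states and windows.

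Nodal is a ligand of the TGF-beta superfamily that signals through activin receptors and SMAD2/3, and it patterns the epiblast and the left side of the early embryo. It needs an EGF-CFC co-receptor, and TDGF1, also called Cripto, is the one that embryonic stem cells are known for. LEFTY1 and LEFTY2 are secreted antagonists that bind Nodal or its co-receptor. *Nodal*, *Lefty1* and *Lefty2* are themselves targets of the pathway, through elements bound by FOXH1 and SMAD proteins, so that the ligand drives both itself and its inhibitors. TET enzymes oxidise 5-methylcytosine to 5-hydroxymethylcytosine, and unmodified CpGs usually mark active or poised promoters and enhancers.

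In GRCm38 (mm10), *Nodal* (ENSMUSG00000037171.6) lies on the plus strand at chr10:61417972-61425338, and the neighbouring gene *Eif4ebp2* reaches into its downstream flank. *Lefty1* (ENSMUSG00000038793.8) lies on the plus strand at chr1:180935022-180938400, upstream of *Tmem63a*. *Lefty2* (ENSMUSG00000066652.5) lies on the plus strand at chr1:180893108-180899103. *Tdgf1* (ENSMUSG00000032494.12) lies on the minus strand at chr9:110939603-110946158, and *Lrrc2* begins in its upstream flank. *Lefty1* and *Lefty2* are close copies, with 91.8% identity over 1104 bases of coding sequence, and reads from one could in principle be placed on the other. An exact copy elsewhere in the genome of the 100 bases around the CpG, after conversion of C to T, was found for 2 of 252 *Lefty1* sites and 5 of 324 *Lefty2* sites, against 0 of 295 for *Nodal* and 1 of 297 for *Tdgf1*, counting each site that either replicate covered.

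The 250 bases before the starts of the *Lefty* genes are shown because they are close in sequence and differ in their number of CpGs. They were read from GRCm38.p6 at chr1:180934772-180935021 for *Lefty1* and chr1:180892858-180893107 for *Lefty2*, both on the plus strand, and capitals mark CpG sites.
Lefty1 promoter: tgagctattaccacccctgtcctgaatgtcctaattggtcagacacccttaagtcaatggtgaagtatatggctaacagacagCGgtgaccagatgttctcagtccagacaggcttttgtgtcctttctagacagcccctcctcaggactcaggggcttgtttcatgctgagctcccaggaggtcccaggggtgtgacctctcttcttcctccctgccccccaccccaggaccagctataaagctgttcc
Lefty2 promoter: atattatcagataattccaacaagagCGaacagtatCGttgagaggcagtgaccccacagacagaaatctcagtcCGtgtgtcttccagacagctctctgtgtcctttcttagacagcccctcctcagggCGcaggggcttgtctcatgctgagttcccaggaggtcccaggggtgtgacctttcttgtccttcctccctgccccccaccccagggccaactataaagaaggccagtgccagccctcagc
Over 213 aligned bases, 86.4% were identical. *Lefty1* has 1 CpG in this stretch and *Lefty2* has 4. The *Lefty1* CpG was CC in 14 of 15 calls in replicate 1 and in 8 of 8 calls in replicate 2. At the 3 *Lefty2* CpGs with calls, CC made up 16 of 21 calls in replicate 1 and 10 of 19 calls in replicate 2. The first of them, at base 27 of the printed sequence, was CC in 3 of 7 calls and 2 of 8 calls. The second, at base 37, was CC in 7 of 8 calls and 4 of 6 calls. The third, at base 76, was CC in 6 of 6 calls and 4 of 5 calls. The CpGs of these genes were not matched by alignment, and a difference in CpG state between the promoters was not tested.

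The 250 bases before the start of *Tdgf1*, at chr9:110946159-110946408 on the minus strand, are shown as a promoter with more CpGs next to the start.
Tdgf1 promoter: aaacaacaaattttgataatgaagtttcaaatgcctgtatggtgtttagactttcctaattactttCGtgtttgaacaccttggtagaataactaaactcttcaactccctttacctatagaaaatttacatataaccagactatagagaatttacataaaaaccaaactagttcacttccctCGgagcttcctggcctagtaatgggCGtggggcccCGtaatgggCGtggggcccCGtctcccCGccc
Of its 7 CpGs, 1 had calls, at base 67, where CC made up 30 of 31 calls in replicate 1 and 5 of 5 calls in replicate 2. The 250 bases before *Nodal* held 3 CpGs, all CC in the 31 calls of replicate 1, and no site passed the depth minimum in replicate 2. The CpGs closest to the starts of *Nodal* and *Tdgf1* thus rest on few calls, and the levels given below sum wider regions.

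Depth differed between the replicates. Replicate 1 held 143497239 calls with a mean depth of 10.5 calls per site, and replicate 2 held 31306245 calls with a mean depth of 6.36. In the windows, the sites with calls were 66.4%, 63.6%, 67.1% and 69.8% of the CpGs of the reference for *Nodal*, *Lefty1*, *Lefty2* and *Tdgf1* in replicate 1, and 23.7%, 25.7%, 29.0% and 30% in replicate 2. The windows held between 2312 and 3215 calls each in replicate 1 and between 605 and 864 in replicate 2. Near the *Nodal* start, replicate 2 had calls at only 2 sites. The synthetic duplexes of known state put the share of MM miscalled as HM/MH at 4.51% for replicate 1 and 0.467% for replicate 2, which bears on the HM/MH levels below.

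All 4 loci were less modified than the genome as a whole. The CC level of the *Nodal* window was 58.4% in replicate 1 and 43.8% in replicate 2, a mean of 51.1% ± 10.3 (SD, n = 2). It was 59.2% and 66.6% for *Lefty1* (62.9% ± 5.26), 65.1% and 68.4% for *Lefty2* (66.7% ± 2.36), and 74.3% and 72.4% for *Tdgf1* (73.4% ± 1.32). The genome stood at 22.1% and 19.5%, below every window in both replicates. *Nodal* was lowest and *Tdgf1* highest in both replicates, and the *Lefty* windows lay between them. The ranges of the replicates overlapped for *Lefty1* and *Lefty2* and for no other pair. The place of *Nodal* depended on the sites taken in. With flanks of 20 kb, mean CC was 46.3% in *Nodal* and 45.6% in *Lefty1*, and without the spans and starts of neighbouring genes (left out only once the data had been seen), mean CC was 64.2% in *Nodal*, 54.0% in *Lefty1*, 58.9% in *Lefty2* and 65.5% in *Tdgf1*. MM levels ran the other way, from 26.3% and 38.9% in *Nodal* to 16.3% and 15.9% in *Tdgf1*, against 55.9% and 59.6% in the genome.

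Among the 17375 protein-coding genes with at least 50 sites in each replicate, 45.9% had a CC level over the median in both replicates, and all 4 members did. The medians were 30.1% and 26%. *Tdgf1* stood at percentiles 99.2 and 99.3, *Lefty2* at 96.8 and 98.7, *Lefty1* at 93.8 and 98.2 and *Nodal* at 93.3 and 83.1. The *Nodal* replicates lay closer to each other at the 93 sites covered in both, where the CC level was 50.2% (47.1 to 53.3) in replicate 1 and 42.3% (38.2 to 46.5) in replicate 2.

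**Figure D1:**
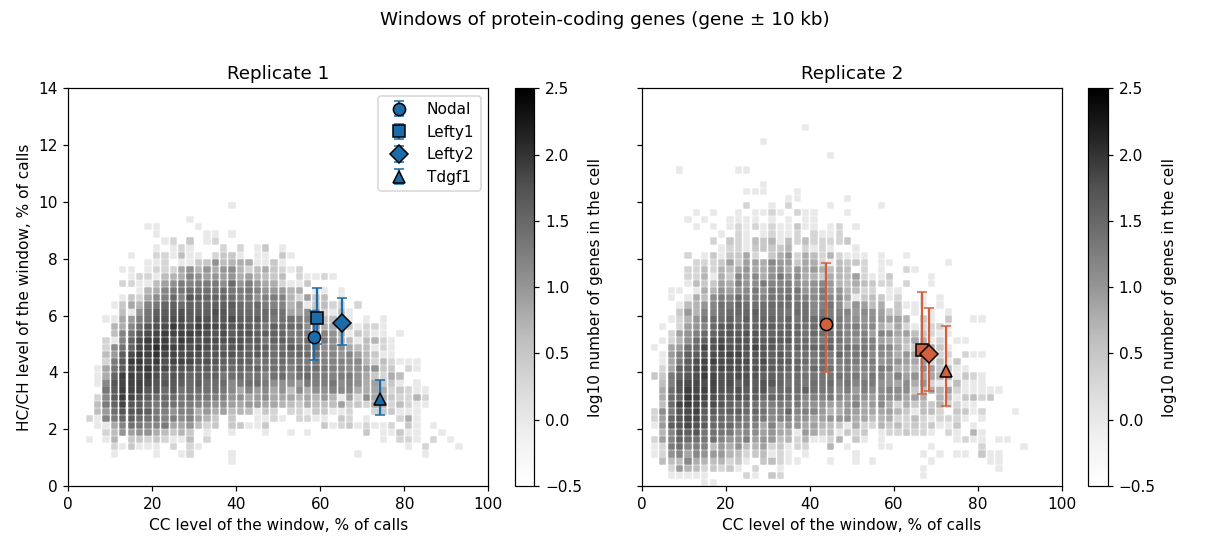
CC level (x axis, % of calls) against HC/CH level (y axis, % of calls) of the windows of 17375 protein-coding genes in each replicate, with the number of genes per cell in grey on a log10 scale and the 4 members as symbols with 95% counting intervals. The members lie at high CC, between 43.8% and 74.3%, and between 3.06% and 5.93% in HC/CH.

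At *Nodal*, which encodes the ligand, the start and the 2 kb after it were almost wholly unmodified in replicate 1, and CC was lower towards the end of the gene. Within 1 kb of the start, CC made up 99.2% of 377 calls in replicate 1 and 90.9% of 11 calls in replicate 2. The first intron stood at 92.2% of 632 calls and 81.8% of 55 calls, the second exon at 79.7% and 90.5%, and the upstream flank at 67.0% and 59.3%. The high level began well before the gene, with 97.3% and 100% CC in the 1 kb bin centred at -1.47 kb from the start, and became lower inside the gene, with 70.0% of 60 calls and 68.4% of 19 calls in the bin at 3.53 kb and 65.6% of 61 calls and 8 of 11 calls in the bin at 4.53 kb. The downstream flank before *Eif4ebp2* fell to 23.4% and 11.6% CC, and the part of *Eif4ebp2* in the window to 14.8% and 12.5%. The upstream flank was not uniform: the bin at -7.47 kb stood at 89.5% and 70.3% CC, the bin at -5.47 kb at 35.1% and 32.4%, and the bin at -4.47 kb at 69.1% and 72.9%.

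At *Lefty1*, CC was high from the bin at -1.52 kb to the bin at 2.48 kb, inside the gene. The bin at 1.48 kb stood at 86.5% of 37 calls and 92.3% of 13 calls. The bin at 2.48 kb stood at 72.3% of 83 calls and 3 of 5 calls. CC made up 89.3% of 318 calls within 1 kb of the start in replicate 1 and 98.3% of 59 calls in replicate 2. The bin at -1.52 kb stood at 83.6% and 85.7% CC, and the next bin with enough calls further upstream, at -3.52 kb, at 16.9% and 20%. The fourth exon, which is the last, had 64.2% CC in replicate 1 and 4 of only 10 calls in replicate 2, and exon 2 had 5 calls in replicate 1 and exon 3 had 0 in both. Downstream, the flank before *Tmem63a* stood at 20.4% and 26.4% CC, and the start of *Tmem63a* at 92.5% and 95.6%. The bin highest in CC by its lower replicate lay there, at 7.48 kb, with 99.5% and 98.8%.

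At *Lefty2*, the CpGs highest in CC lay away from the start. Within 1 kb of its start, CC made up 63.3% of 294 calls (57.5 to 68.8) in replicate 1 and 54.4% of 68 calls (41.9 to 66.5) in replicate 2, below the interval of *Lefty1* in both replicates, 85.4 to 92.5 and 90.9 to 100. Instead, the bins at -4.61 kb and -3.61 kb upstream stood at 96.7% and 99.3% CC in replicate 1 and at 100% each in replicate 2. Between them and the start, the bin at -1.61 kb fell to 30.9% of 68 calls and 22.2% of 18 calls. Inside the gene, the second exon was unmodified in 96.5% of 86 calls and 91.7% of 24 calls, and the fourth and last exon in 15.0% of 213 calls and 13.3% of 60 calls. CC of the last exon was thus 64.2% in *Lefty1* and 15.0% in *Lefty2* in replicate 1. These exons differ in length, 789 bases in *Lefty1* and 1654 in *Lefty2*, so that the calls do not come from matching sequence throughout. The difference between the paralogs was not tested.

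The unmodified upstream stretch of *Lefty2* is shown by the 250 bases of its highest CC bin that held most covered sites, chr1:180889177-180889426 on the plus strand, with CpGs in capitals.
Lefty2 upstream: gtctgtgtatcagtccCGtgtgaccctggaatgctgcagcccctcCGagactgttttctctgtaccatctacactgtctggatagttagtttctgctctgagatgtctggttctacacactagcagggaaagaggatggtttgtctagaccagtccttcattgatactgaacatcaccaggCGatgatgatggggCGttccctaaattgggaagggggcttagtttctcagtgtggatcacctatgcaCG
Of its 5 CpGs, each replicate had calls at 4, not all of them the same. These were CC in 49 of 49 calls in replicate 1 and in 40 of 40 calls in replicate 2. No gene of the annotation lies there.

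At *Tdgf1*, the co-receptor gene, CC was high over most of the gene and its upstream flank. CC made up 99.1% of 426 calls and 100% of 96 calls within 1 kb of the start, and the highest bin, at -0.34 kb, stood at 99.3% and 100%. The first intron stood at 99.1% and 93.2%, and the introns beyond 1 kb of the start at 89.6% and 85.6%. The upstream flank, here only the 3386 bases before the region around the *Lrrc2* start, stood at 89.4% and 90.4%. Upstream CC was not uniform, with 69.2% of 91 calls and 78.9% of 19 calls in the bin at -3.34 kb, and 61.2% of 67 calls and 58.8% of 17 calls at -4.34 kb. Beyond that flank, inside *Lrrc2*, the bin at -9.34 kb stood at 65.5% of 29 calls and 52% of 25 calls. For *Lrrc2*, CC was 85.0% and 86.6% around its start and 96.0% and 89.6% in the part of its body inside the window. The last exon, exon 6, had 54.9% CC of 102 calls in replicate 1 and no calls in replicate 2. The downstream flank as a whole stood at 25.6% and 18.2%, but CC did not fall evenly. It was already lower in the bin at 5.66 kb, with 52.1% of 71 calls and 41.7% of 12 calls. The bin at 6.66 kb, at the end of the gene, stood at 55.3% of 85 calls and 61.5% of 13 calls. The bin at 7.66 kb, beyond that end, was higher, with 75.5% of 53 calls and 11 of 11 calls. The bin at 8.66 kb stood at 40.4% of 47 calls in replicate 1, with no calls in replicate 2. The bin at 10.66 kb stood at 27.7% of 83 calls and 4.17% of 24 calls.

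**Figure D2:**
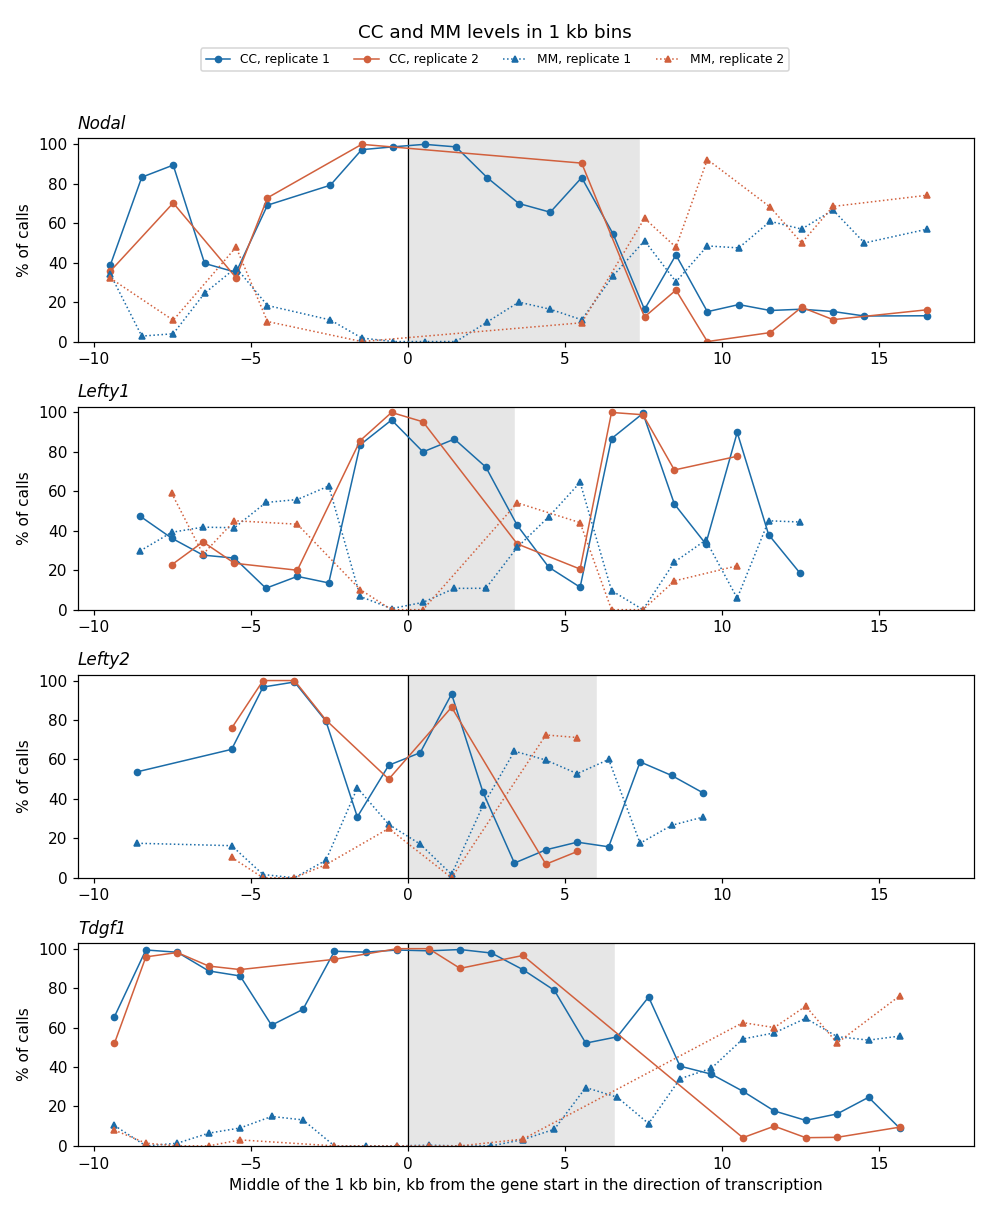
CC (circles, solid lines) and MM (triangles, dotted lines) levels in % of calls, in 1 kb bins against distance from the gene start in the direction of transcription, with the gene span shaded. Bins with under 20 calls in a replicate, and Lefty2 bins beyond 10 kb, are left out. CC is high around the starts of Nodal, Lefty1 and Tdgf1 and again in the neighbouring Tmem63a downstream of Lefty1 (99.5% and 98.8% at 7.48 kb), and at Lefty2 it is high upstream of the start, at 96.7% to 100% in the bins at -4.61 and -3.61 kb.

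The levels near the starts were set against the rest of each window with Fisher's exact test, two-sided, in each replicate, with Benjamini-Hochberg adjustment over 8 tests. A difference was called when the adjusted p was below 0.05 in both replicates with the same sign. Calls at neighbouring sites can come from the same read pair, so that these p-values cover counting error only and are too small. CC was higher near the start of *Nodal* by 47.3 and 48.0 percentage points (adjusted p = 4.8e-90 and 0.0021 in Fisher's exact test), of *Lefty1* by 34.9 and 35.1 points (2.68e-36 and 5.84e-10), and of *Tdgf1* by 28.7 and 31.1 points (2.77e-52 and 1.45e-14). For *Lefty2*, CC near the start differed from the rest by -1.99 points in replicate 1 (adjusted p = 0.52 in Fisher's exact test) and by -15.2 points in replicate 2 (adjusted p = 0.016), so that no difference was called. With only sites of at least 10 calls, the *Tdgf1* difference, 28.7 points on average, was no longer called (larger adjusted p = 0.079 in Fisher's exact test). How many other protein-coding genes would be called was not counted, so that the result does not set these genes apart. CC was also high around the starts of the neighbours *Tmem63a* (92.5% and 95.6%) and *Lrrc2* (85.0% and 86.6%).

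Of the 100 bins of 1 kb that lay inside the windows, 55 had at least 20 calls in each replicate. CC was at least 50% in both replicates in 31 of these 55, against 9.4% of the 579538 such bins of the genome. They were 4 of 13 bins for *Nodal*, 7 of 13 for *Lefty1*, 10 of 14 for *Lefty2* and 10 of 15 for *Tdgf1*. Of the 31, 7 overlapped the member gene itself, 1 each for *Nodal*, *Lefty1* and *Lefty2* and 4 for *Tdgf1*. The others lay in the flanks, and many of them in neighbouring genes. These took in every *Tdgf1* bin from -5.34 to -9.34 kb, in *Lrrc2*, and the *Lefty1* bins at 7.48, 8.48 and 10.48 kb, in *Tmem63a*. The count is therefore one of windows, not of the member genes alone. Only 11 of the 55 bins overlapped a member gene, and for *Nodal* replicate 2 had too few calls over most of the gene.

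**Figure D3:**
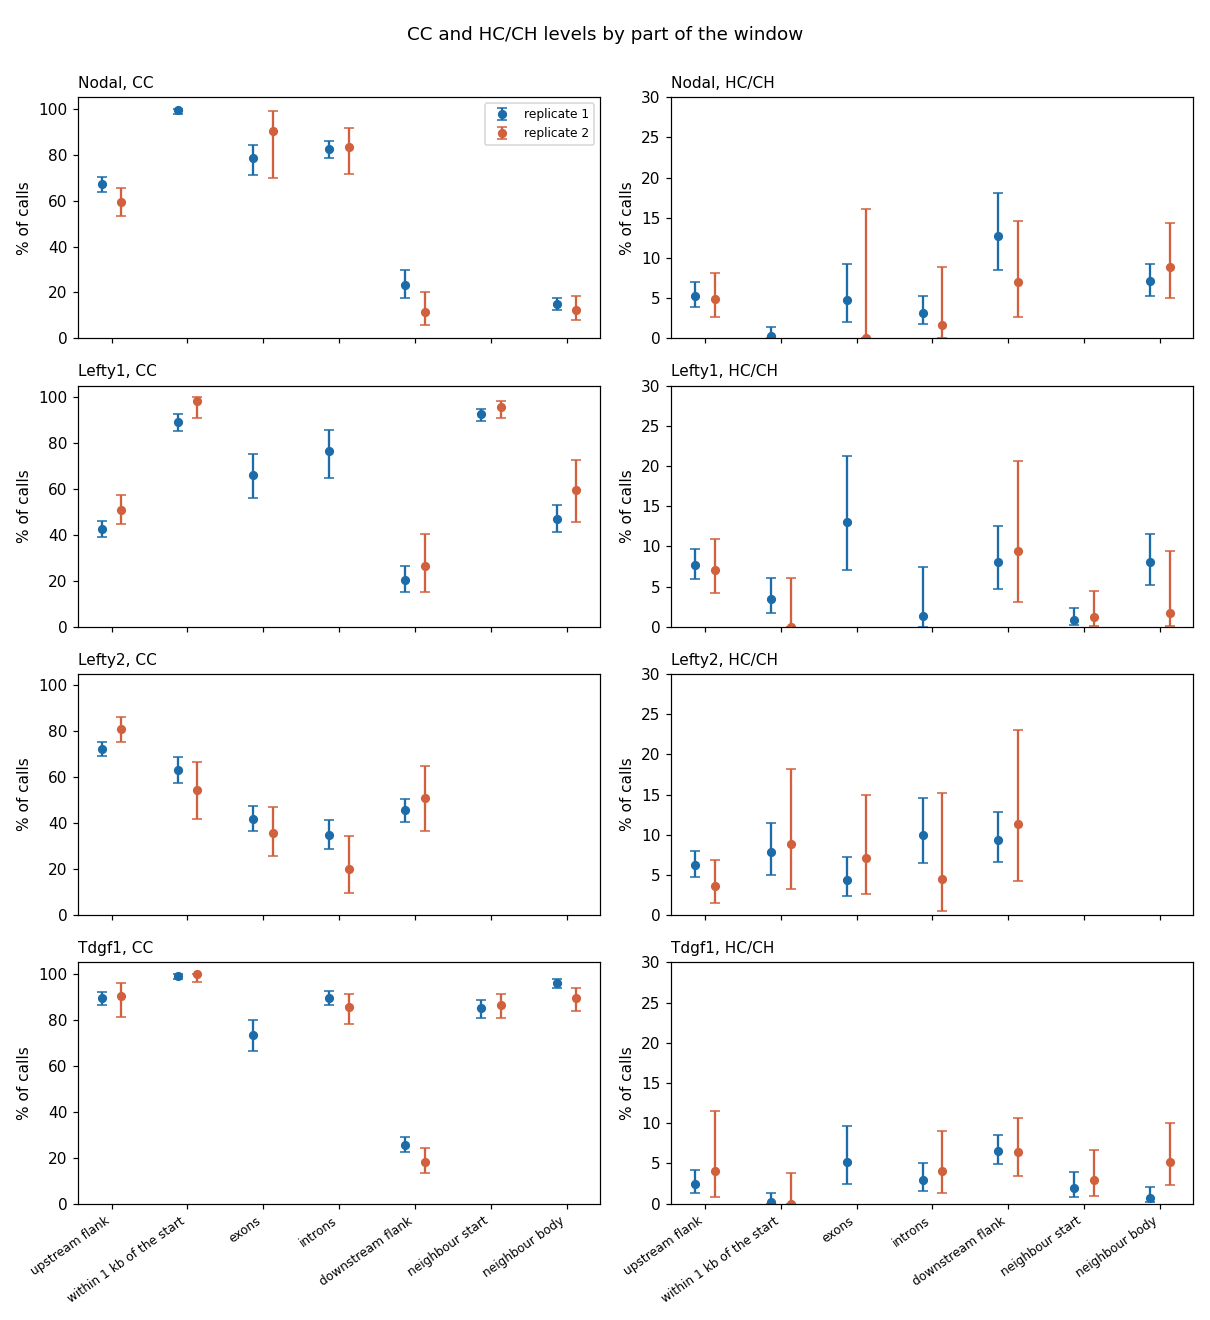
CC (left) and HC/CH (right) levels in % of calls by part of the window, for each gene and replicate, with 95% counting intervals. Parts with under 20 calls in a replicate and the neighbour of Lefty2 are left out, and exons, introns and flanks leave out the 1 kb around gene starts. Near the start, CC is lowest for Lefty2 (63.3% and 54.4%), and the values shown for the other genes are at least 89.3%.

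HC/CH, hydroxymethylation facing an unmodified strand, was the most frequent hydroxymethylated state in every window and replicate. Its level was 5.24% and 5.70% in *Nodal* (5.47% ± 0.32, SD, n = 2), 5.93% and 4.79% in *Lefty1* (5.36% ± 0.80), 5.75% and 4.63% in *Lefty2* (5.19% ± 0.80), and 3.06% and 4.06% in *Tdgf1* (3.56% ± 0.70). The genome stood at 4.06% and 3.66%, and the medians of protein-coding genes at 4.70% and 4.18%. *Nodal*, *Lefty1* and *Lefty2* lay over the median in both replicates and *Tdgf1* in neither. Since 40% of protein-coding genes were over it in both, this alone does not set the 3 genes apart.

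The 6 pairs of windows were compared with Fisher's exact test in each replicate, with adjustment over 12 tests, and no pair was called. In replicate 1, *Tdgf1* was lower in HC/CH than *Nodal* by 2.18 points (adjusted p = 0.00014), than *Lefty1* by 2.86 points (2.44e-06) and than *Lefty2* by 2.69 points (2.44e-06), all by Fisher's exact test. In replicate 2 the same differences were 1.64, 0.74 and 0.57 points, with adjusted p of 0.51, 0.70 and 0.76 by Fisher's exact test. *Tdgf1* was therefore the lowest in both replicates, but not beyond counting error in the shallower one. *Lefty1* and *Lefty2* differed by 0.17 and 0.16 points.

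The windows have few modified CpGs, and HC/CH was therefore also taken as a share of the modified calls, those that were not CC, a measure chosen after the data were seen. It was 12.6% and 10.1% in *Nodal*, 14.5% and 14.4% in *Lefty1*, 16.5% and 14.7% in *Lefty2* and 11.9% and 14.7% in *Tdgf1*. In the genome it was 5.21% and 4.54%, and the medians of protein-coding genes were 7.15% and 5.96%. All 4 members lay over the median in both replicates, as did 43.3% of protein-coding genes, and their percentiles were between 87.6 and 99.3. No pair was called on this scale either.

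No difference in HC/CH between gene body and flanks was called, with 1 kb around the start left out and adjustment over 8 tests. The flanks of this comparison were the whole 10 kb on both sides, with neighbouring genes and their starts taken in. The HC/CH level of the *Nodal* body was 3.63% against 6.86% in its flanks in replicate 1 (adjusted p = 0.031 in Fisher's exact test) and 1.23% against 6.51% in replicate 2 (adjusted p = 0.28), where the body had 81 calls. The *Lefty1* body stood at 8.14% and 13% against 6.15% and 4.97%, the latter from 23 calls in the body. The *Lefty2* body stood at 6.82% and 6.20% against 5.25% and 3.90%, and the *Tdgf1* body at 3.57% in both replicates against 3.51% and 4.82%. The smallest adjusted p in these 3 genes was 0.30 by Fisher's exact test. The neighbours bear on these values, since HC/CH was 0.905% and 1.27% around the start of *Tmem63a*. Outside neighbouring genes and their starts, HC/CH of the *Lefty1* flanks was 7.70% and 7.06% upstream and 8.06% and 9.43% downstream. For *Lefty2* it was 6.21% and 3.57% upstream and 9.38% and 11.3% downstream. As a share of modified calls, the comparison of body and whole flanks gave other differences, of which none was called either. The *Tdgf1* body stood 13.2 and 12.6 points above its flanks (adjusted p = 0.0063 and 0.19 in Fisher's exact test), and the *Lefty1* body 14.4 and 29.5 points above (adjusted p = 0.027 and 0.10 in Fisher's exact test). The *Lefty2* body turned to -7.19 and -8.22 points (adjusted p = 0.014 and 0.12 in Fisher's exact test), and the *Nodal* body to 7.49 points in replicate 1 and -1.91 points in replicate 2 (adjusted p = 0.071 and 1.0 in Fisher's exact test). The sign for *Lefty2* in both replicates, for *Nodal* in replicate 1 and for *Tdgf1* in replicate 2 thus depended on the scale.

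The states of a bin sum to 100%, so that HC/CH has to be near 0 where CC is near 100%, and the bins below are given with that in mind. HC/CH reached at least 2 times the genome level of the same replicate in both replicates in 8 of 55 bins, against 6.9% of bins of the genome. They were 3 of 13 bins for *Nodal*, 3 of 13 for *Lefty1*, 1 of 14 for *Lefty2* and 1 of 15 for *Tdgf1*. With at least 40 calls per bin in each replicate the count was 2 of 25 bins, against 8.74% of such bins of the genome, and with bins shifted by 500 bp it was 5 of 55, against 6.92%. By 1 replicate alone it was 30 of 96 in replicate 1, against 12.1%, and 16 of 55 in replicate 2, against 20.2%. The highest bin of *Nodal* lay 8.53 kb from the start, between its end and *Eif4ebp2*, with 9.09% of 66 calls and 8.70% of 23 calls. That of *Lefty1* lay at -5.52 kb, with 11.5% of 130 calls and 9.80% of 51 calls. That of *Tdgf1* lay at -9.34 kb, within *Lrrc2*, with 10.3% of 29 calls and 24.0% of 25 calls. MC/CM reached 2 times the genome level in 0 of 55 bins, against 0.242% in the genome.

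**Figure D4:**
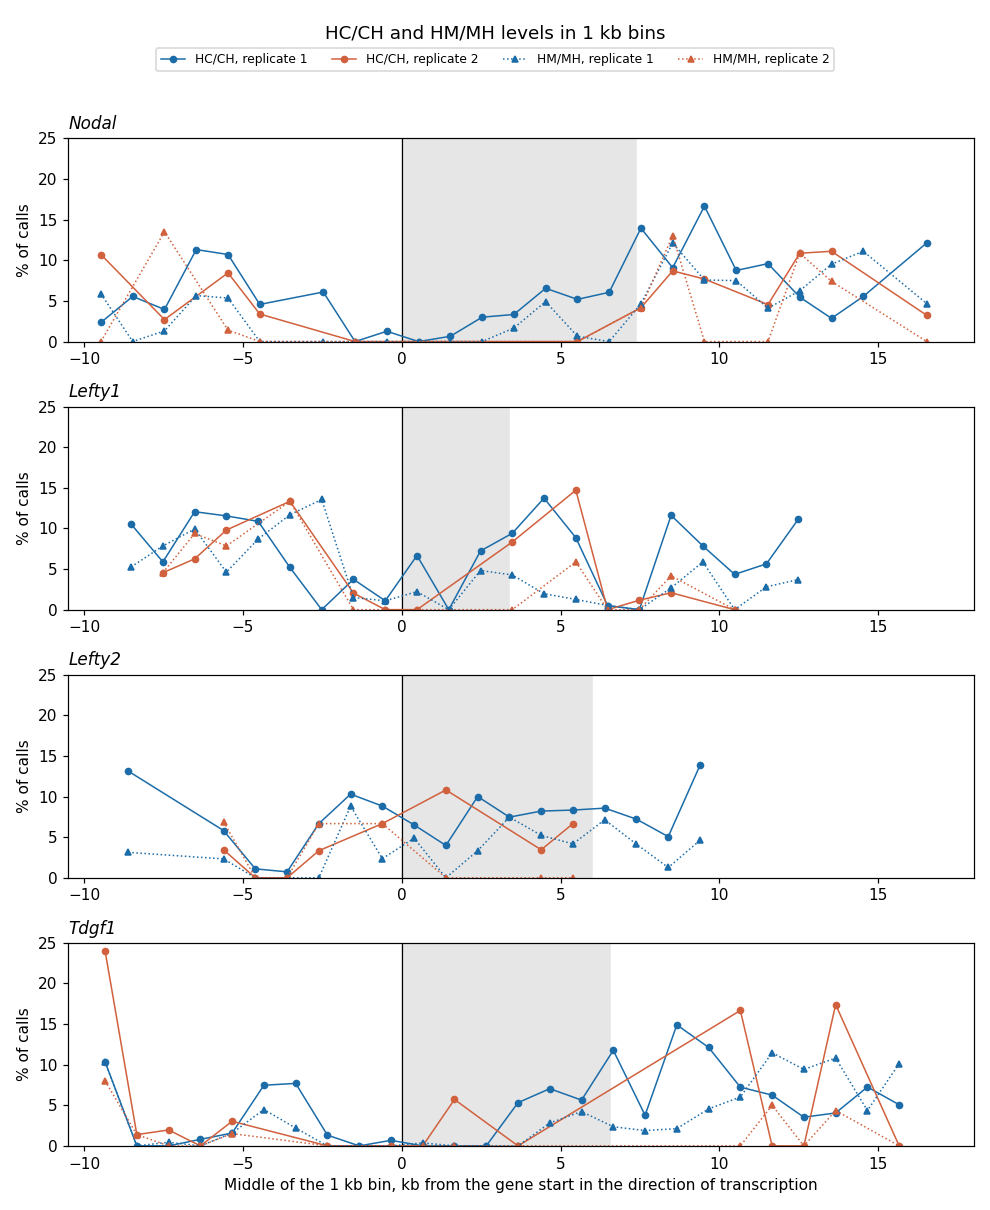
HC/CH (circles, solid lines) and HM/MH (triangles, dotted lines) levels in % of calls, in 1 kb bins against distance from the gene start, with the gene span shaded and bins with under 20 calls in a replicate, and Lefty2 bins beyond 10 kb, left out. HC/CH is near 0 around the starts of Nodal and Tdgf1 and in the bins at -4.61 and -3.61 kb of Lefty2, and reaches 24.0% in replicate 2 in the outermost Tdgf1 bin, from 25 calls.

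To set bins beside others of the same class of CC level, the bins with at least 20 calls were sorted by CC in one replicate and their HC/CH was read in the other. In bins with 20% to 80% CC, HC/CH was 8.11% (6.93 to 9.41) in 18 bins of the 4 windows against 5.93% in all such bins in replicate 1, and 8.03% (6.01 to 10.4) in 16 bins against 5.94% in replicate 2. In bins under 20% CC, it was 7.67% (6.28 to 9.26) in 13 bins against 4.37% in replicate 1, and 7.69% (5.35 to 10.6) in 14 bins against 3.36% in replicate 2. In bins of at least 80% CC, it was 1.82% and 1.62% against 1.64% and 1.94%, with both genome values inside the intervals of the windows. In the classes under 80% CC, HC/CH of the loci was thus above that of all bins in both replicates. The bins of the loci were also higher in CC within these classes, at 45.9% and 43.7% against 40.7% and 33.1% in the class from 20% to 80%, and at 16% and 11.7% against 12.5% and 7.81% in the class under 20%, so that the bins set side by side were not of equal CC. No test of the difference in HC/CH was run.

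HC/CH was seen in both replicates at 57 of the 417 sites that both covered, 13.7%, against 8.53% of 4520194 sites of the genome. The mean depth of these sites was 11.7 and 6.46 calls in the windows and 12 and 6.41 in the genome. They were 16 of 93 sites in *Nodal*, 15 of 89 in *Lefty1*, 18 of 123 in *Lefty2* and 8 of 112 in *Tdgf1*. In each locus, the site with the highest share of HC/CH calls in its lower replicate is shown (for *Lefty1* the first of 3 that tied), chosen after its values were seen, with the CpG in capitals and 20 bases on each side on the strand of the gene. The *Nodal* site is at chr10:61432667-61432708, within *Eif4ebp2*, the *Lefty1* site at chr1:180925409-180925450, the *Lefty2* site at chr1:180891966-180892007 and the *Tdgf1* site at chr9:110935273-110935314, the last on the minus strand.
Nodal site: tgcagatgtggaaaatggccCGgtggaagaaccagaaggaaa
Lefty1 site: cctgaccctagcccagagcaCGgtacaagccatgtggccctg
Lefty2 site: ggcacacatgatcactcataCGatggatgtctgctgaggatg
Tdgf1 site: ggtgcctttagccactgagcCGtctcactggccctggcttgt
HC/CH made up 3 of 7 and 2 of 5 calls at the *Nodal* site, 2 of 11 and 1 of 6 at the *Lefty1* site, 2 of 7 and 3 of 8 at the *Lefty2* site, and 1 of 5 and 2 of 6 at the *Tdgf1* site, in replicates 1 and 2. The *Lefty2* site lies -1.12 kb from the gene start, on the modified stretch between the upstream unmodified bins and the gene. At this depth a single site carries little weight, with an interval from 3.67% to 71.0% at the *Lefty2* site in replicate 1.

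HM/MH, hydroxymethylation facing a methylated strand, was 3.09% and 3.58% in *Nodal* (3.34% ± 0.35, SD, n = 2), 3.68% and 2.81% in *Lefty1* (3.24% ± 0.61), 2.27% and 2.43% in *Lefty2* (2.35% ± 0.11) and 2.25% and 1.19% in *Tdgf1* (1.72% ± 0.75). The genome stood at 4.0% and 2.47%. No member lay over the median of protein-coding genes, 3.86% and 2.57%, in both replicates, against 32.5% of genes that did. After correction with the call rates of each replicate from the synthetic duplexes, HM/MH in replicate 1 fell to 1.86%, 2.59%, 1.30% and 1.5% in *Nodal*, *Lefty1*, *Lefty2* and *Tdgf1*, and was 3.30%, 2.63%, 2.24% and 0.98% in replicate 2. The corrected genome levels were 1.30% and 2.11%, and the corrected medians of protein-coding genes 1.51% and 2.24%. On the corrected scale *Nodal* and *Lefty1* thus lay over the median in both replicates, as did 35.3% of protein-coding genes, so that the place of these genes in HM/MH depended on the correction. HM/MH reached 2 times the genome level in both replicates in 6 of 55 bins, against 2.9% of bins of the genome: 2 each in *Nodal*, *Lefty1* and *Tdgf1* and 0 in *Lefty2*. This count was not stable: it was 1 of 25 bins with at least 40 calls, against 3.11% of the genome, 3 of 55 with bins shifted by 500 bp, against 2.86%, 13 of 96 by replicate 1 alone, against 10.6%, and 14 of 55 by replicate 2 alone, against 19.6%. The bin 8.53 kb from the *Nodal* start, highest in HC/CH, was also its highest in HM/MH, with 8 of 66 calls and 3 of 23 calls. That of *Lefty1* in HM/MH lay at -3.52 kb, with 9 of 77 calls and 4 of 30 calls, and that of *Tdgf1* at -9.34 kb, with 3 of 29 calls and 2 of 25 calls. HH was rare, with between 1 and 15 calls per window and replicate.

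The strand that carried hydroxymethylcytosine was counted relative to transcription. In HC/CH calls, it was the sense strand in 46.5% and 62.9% for *Nodal*, 49.6% and 55.2% for *Lefty1*, 51.4% and 55.0% for *Lefty2* and 56.4% and 41.2% for *Tdgf1*, and 50% lay inside each of the 8 intervals. In HM/MH calls of *Lefty2*, it was the sense strand in 21 of 73 calls in replicate 1 (28.8%, 18.8 to 40.6) and in 8 of 21 calls in replicate 2 (38.1%, 18.1 to 61.6), so that 50% lay outside the interval in replicate 1 and inside it in replicate 2. For the other members the sense share of HM/MH calls was between 43.5% and 60%, and 50% lay inside each interval. In MC/CM calls the sense strand held between 47.6% and 49.4% in replicate 1 and 48.9%, 31.6%, 62% and 56.6% in replicate 2 for *Nodal*, *Lefty1*, *Lefty2* and *Tdgf1*, and 50% lay outside the interval for *Lefty1* in replicate 2 alone (17.5 to 48.7).

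Matches to 3 motifs that the pathway and pluripotency factors are known for were searched on both strands of the windows, namely TGTGGATT for FOXH1, GTCTAGAC for SMAD proteins and ATGCAAAT for POU factors such as OCT4. No match overlapped another. None was found in the 250 bases before the 4 starts, and 0.652%, 0.173% and 1.45% of the 21938 promoters of the same length held them. In the 55 bins, 2 held the FOXH1 motif, 1 the SMAD motif and 3 the POU motif, against 4.39%, 0.933% and 6.20% of the bins of the genome with enough calls. The FOXH1 and SMAD matches in *Nodal* and *Lefty2* are shown because they lie in mostly unmodified DNA, so that their CC levels are no result about the motifs. They have the motif in capitals and 16 bases on each side, all read 5′ to 3′ on the strand of the motif. The *Nodal* matches are both in the first intron, at chr10:61419299-61419306 and chr10:61420093-61420100 on the minus strand. The *Lefty2* matches are upstream, at chr1:180888893-180888900 and chr1:180888976-180888983 on the minus strand for FOXH1, and at chr1:180889319-180889326 for the palindromic SMAD motif.
Nodal FOXH1 a: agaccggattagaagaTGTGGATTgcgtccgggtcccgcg
Nodal FOXH1 b: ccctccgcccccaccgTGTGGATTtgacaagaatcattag
Lefty2 FOXH1 a: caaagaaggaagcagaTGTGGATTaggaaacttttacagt
Lefty2 FOXH1 b: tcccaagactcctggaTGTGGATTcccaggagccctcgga
Lefty2 SMAD: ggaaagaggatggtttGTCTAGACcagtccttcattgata
Within 500 bases of the *Nodal* matches, CC was 99.2% of 254 calls and 93.9% of 131 calls in replicate 1, and 96.0% of 25 calls and 93.3% of 15 calls in replicate 2. The 1 kb bin of the second *Nodal* match, at 2.53 kb, was lower, with 83% of 100 calls in replicate 1 and no calls in replicate 2. Within 500 bases of the *Lefty2* FOXH1 matches CC was 99.1% in replicate 1 for both and 100% in replicate 2, and around the SMAD match it was 100% of 129 calls and 100% of 62 calls. The 1 FOXH1 match of *Lefty1*, at -5.33 kb, lay in modified DNA, with 24.1% and 22.6% CC and 9.26% and 6.45% HC/CH around it. The POU matches reported here lay at -1.01 kb and 2.99 kb from *Lefty1*, at -1.30 kb from *Lefty2* and at -1.83 kb from *Tdgf1*. Around the first CC was 96.9% and 100%, and around that at 2.99 kb from *Lefty1* it was 65.7% of 108 calls and 40% of 10 calls. Around that at -1.30 kb from *Lefty2* it was 25.8% and 20.8%, and around that of *Tdgf1* it was 97.2% and 100%. A match in letters is a description and does not show that the factor bound there.

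Other genes of the Nodal pathway were taken from a list of 21 that held ligands, co-receptors, receptors, SMAD proteins and their partners, proteases, antagonists and targets. All 21 had at least 50 sites in each replicate. CC was over the median of protein-coding genes in both replicates in 12 and under it in both in 9, and its median over the list was 30.4% and 27.3%. HC/CH was over the median in both in 10 of 21 and under it in both in 6, with list medians of 5.19% and 4.36%. HC/CH as a share of modified calls was over it in 11 and under it in 7, and HM/MH over it in 7 and under it in 6. The counts over the median stand beside the 40% to 45.9% of all genes given above for HC/CH and CC, and beside 32.5% for HM/MH. A median splits the genes evenly in each replicate. About the same share of all genes therefore lies under it in both replicates as over it in both. *Smad7*, an inhibitory SMAD, was highest in HC/CH in its lower replicate, with 7.32% and 7.41%. *Acvr2a*, a type II activin receptor, was lowest by the same measure, with 4.30% and 1.96%, though it was not the lowest in replicate 1.

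The genes whose windows were most like those of the members were found by the distance between standardised levels of 5 states in both replicates. For *Nodal* they were *Prph* and *Gabarapl2*, at distances of 0.58 and 0.70 where the median gene lay at 4.69. For *Lefty1* they were *Plekhf2* and *Fam25c* (1.01 and 1.02, median 5.79), for *Lefty2* *B3gnt3* and *Tnfsfm13* (0.79 and 0.94, median 6.61), and for *Tdgf1* *Cirbp* and *Zfp42* (0.73 and 0.79, median 7.70). *Zfp42*, also called Rex1, is a marker gene of pluripotent cells, and its window had 72.4% and 73.8% CC and 2.90% and 3.54% HC/CH. Likeness over 10 values of 2 libraries is a description of these windows.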

How the data were processed

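SCoTCH-seq was run on genomic DNA of 2 passages of E14 cells, to which synthetic duplexes of known CpG states had been added. The authors trimmed read pairs, mapped them to GRCm38 (mm10), took out duplicates, assigned states per read pair and dropped blacklisted sites. The submitters' processing notes name cutadapt 4.6 and Picard 3.1.1. For every CpG site with at least 5 calls, the deposited files hold a count per state, the depth and a percent, which equals the count divided by the depth, times 100, at every site. None of these was corrected for call errors. The members and gene lists were chosen with earlier results of these data known.

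Counts were summed over sites in each replicate. Positions, counted from 1, all lay on the C of a CpG of GRCm38.p6. Intervals are exact Clopper-Pearson 95% intervals, and Fisher's exact tests were adjusted by Benjamini-Hochberg over each family of tests, both replicates together. Bins of 1 kb needed at least 20 calls in each replicate. SciPy 1.17.1 was used with NumPy 2.4.6 and pandas 2.3.3 under Python 3.11.15, and Matplotlib 3.10.9 for the figures. The corrected levels solve the 9 linear equations set by the duplexes, with negative solutions set to 0. Protein-coding genes came from GENCODE vM21, and those with at least 50 sites in each replicate were ranked. The mean depth was 10.5 calls per site in replicate 1 and 6.36 in replicate 2, so that single sites are coarse and regions were summed. The genes and bins named are the 4 members, the pathway genes lowest and highest in HC/CH by the lower replicate, the 2 genes most like each member, and in each locus the bins with the highest CC, HC/CH and HM/MH by the lower replicate, apart from those in the gene not reported here. Other bins were named after their values were seen, to describe how CC varies along a window. The steps were tested on simulated data. Alternatives were other coverage minimums, flanks, widths, bins, weightings and corrections, only sites in both replicates, and each replicate left out. Leaving out neighbouring genes or sites with exact copies, HC/CH as a share of modified calls, sites with HC/CH in both replicates, and the sorting of bins by CC were chosen after the data were seen. Values for 1 neighbouring gene are not reported here.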

Additional observations from a re-analysis of the deposited data

How the results depend on the processing

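The levels, comparisons and counts of bins were 30 results, which gave 289 values under 15 alternative settings. In 212 of these a tested result kept its direction and its side of the threshold, and an untested one moved by less than the spread between replicates or, for a count, by at most 1.5 times. The higher CC near the starts of *Nodal*, *Lefty1* and *Tdgf1* was called under each alternative that gave a test, except for *Tdgf1* with a minimum of 10 calls per site. That minimum left no value for the starts of *Nodal*, *Lefty1* and *Lefty2* and for the bodies of *Nodal* and *Lefty1*, and sites in both replicates or within 500 bp left none for the *Nodal* start. Depth limits these results: replicate 2 had calls at 23.7% to 30% of the CpGs of the windows. No paired analysis was possible because all samples belong to 1 group.

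With a coverage minimum of 10 calls per site, CC near the *Tdgf1* start was 28.7 points higher but no longer called, the *Lefty2* window stood at 70.4% CC, HC/CH at 6.61% in *Nodal* and 3.52% in *Lefty2*, and HM/MH at 4.91% in *Nodal*, 3.98% in *Lefty1* and 0.975% in *Lefty2*. The *Tdgf1* body then lay 2.82 points above its flanks, and *Lefty2* against *Tdgf1* turned to -0.0651 points, neither of them called. Means of per-site percentages gave 2.49% HM/MH in *Lefty2*, 48.2 and 33.1 points more CC near the starts of *Nodal* and *Lefty1*, and -0.0195 points for *Lefty1* against *Lefty2*. With only sites in both replicates, HC/CH and HM/MH of *Nodal* were 6.50% and 3.76%, HM/MH of *Lefty2* was 1.91% and CC of *Tdgf1* was 74.8%. Correction by each replicate's own duplexes gave HM/MH of 2.58%, 2.61% and 1.77% in *Nodal*, *Lefty1* and *Lefty2*, differences in CC of 48.3 and 35.6 points near the starts of *Nodal* and *Lefty1*, and 0.149 points for *Lefty1* against *Lefty2*.

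Other flanks change which sites are counted. With flanks of 5 kb, CC was 61.7% in *Nodal*, 72.0% in *Lefty1*, 63.6% in *Lefty2* and 81.4% in *Tdgf1*, HC/CH was 4.44% and 4.05% in *Nodal* and *Lefty1*, and HM/MH was 2.24%, 2.31% and 0.963% in *Nodal*, *Lefty1* and *Tdgf1*. *Nodal* and *Lefty1* against *Lefty2* turned to -0.836 and -1.23 points of HC/CH, not called. With flanks of 20 kb, CC was 46.3%, 45.6%, 53.6% and 64.8% in *Nodal*, *Lefty1*, *Lefty2* and *Tdgf1*, HC/CH was 5.87%, 6.72%, 6.70% and 4.87% in *Nodal*, *Lefty1*, *Lefty2* and *Tdgf1*, and HM/MH was 4.16% and 3.47% in *Lefty1* and *Lefty2*. There, CC near the *Lefty2* start was 5.51 points above the rest, its body was -0.112 points from its flanks in HC/CH, and *Nodal* against *Lefty1* and *Lefty2* turned to -0.854 and -0.836 points, again not called. Without neighbouring genes and their starts, CC was 64.2%, 54.0%, 58.9% and 65.5% in *Nodal*, *Lefty1*, *Lefty2* and *Tdgf1*, HC/CH was 4.56%, 6.80% and 6.53% and HM/MH 2.29%, 4.23% and 3.15% in *Nodal*, *Lefty1* and *Lefty2*, and *Nodal* against *Lefty1* and *Lefty2* turned to -2.24 and -1.97 points, not called. *Tdgf1* was highest in CC in each of these 3 settings. Leaving out sites with an exact copy changed none of the 26 results it was run on in these ways.

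With each replicate left out in turn, CC near the *Lefty2* start ranged from -15.2 to -1.99 points and was called in replicate 2 alone. HC/CH of the *Nodal* body against its flanks ranged from -5.28 to -3.23 points, called in replicate 1 alone, and that of *Tdgf1* from -1.25 to 0.0644 points. *Nodal* against *Lefty1* ranged from -0.684 to 0.907 points and against *Lefty2* from -0.512 to 1.07. *Nodal*, *Lefty1* and *Lefty2* against *Tdgf1* ranged from 1.64 to 2.18, 0.736 to 2.86 and 0.572 to 2.69 points, all called in replicate 1 alone. With 55 bins in replicate 2 and 96 in replicate 1, bins with CC of at least 50% ranged from 31 to 54 (11.2% and 7.7% of bins of the genome), bins rich in HC/CH from 16 to 30 (20.2% and 12.1%) and bins rich in HM/MH from 14 to 13 (19.6% and 10.6%). With at least 40 calls per bin these counts were 19, 2 and 1 of 25 (19.2%, 8.74% and 3.11% of the genome), and with bins shifted by 500 bp the last 2 were 5 and 3 of 55 (6.92% and 2.86%). The cause of the other changes was not tested.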
